A study of Mus musculus with 2 samples.

Results

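The angiopoietin and Tie receptor system was followed as 7 genes in sorted Flk1+Tie2+ cells with and without a pulse of Mesp1. They are the receptor genes Tek and Tie1, the ligand genes Angpt1, Angpt2 and Angpt4, the phosphatase gene Ptprb, and Svep1, the gene of an extracellular matrix protein. Every probe set to which the array's platform annotation gives 1 of these symbols was taken, which came to 12 of 45037 probe sets and to 7 of 18193 named genes. None of the 12 carries another gene symbol, and 3 of the genes (Tek, Tie1 and Svep1) have 1 probe set each. The cells came from A2lox.Mesp1 mouse embryonic stem cells (129/Ola background), a line in which doxycycline (dox) induces a Mesp1 gene, and both cultures carried that gene. They were differentiated as embryoid bodies at 15000 cells/mL with 10% FCS. The treated culture received 250 ng/mL of dox on day 2, with an end at day 4 by the series' design, and the control culture received none. Both were sorted on day 5 as Flk1+Tie2+ cells and measured on 1 Affymetrix array per condition. A single inducible line in culture, with no array of dox-treated cells that lack the transgene, limits the comparison: an effect of dox itself and an effect of Mesp1 cannot be told apart.

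Tie2, the protein of Tek, is a receptor tyrosine kinase of endothelial cells that is also found on early blood progenitors. Angiopoietin 1, made largely by mesenchymal, perivascular and heart muscle cells, activates Tie2, and this signal steadies vessels through PI3 kinase, Akt and the inactivation of FOXO1. Angiopoietin 2, made by endothelium itself, can oppose or weakly mimic it. Tie1 binds Tie2 and modulates it, Ptprb (VE-PTP) removes phosphate from Tie2 and from VE-cadherin, and Svep1 (polydom) is a matrix protein that has been linked to Tie1 and to lymphatic vessels. Mice that lack Tek or Angpt1 die in midgestation with faulty heart lining and vessel remodelling.

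Values below are linear signals as deposited, in arbitrary units, and the lowest value in the table is a floor of 1. The median signal was 112 without dox and 127 with dox. Differences are dox minus no dox on the scale log2(signal + 16), and folds are 2 to that power. A gene is represented by its brightest probe set, and it passed the signal filter where at least 1 of its signals reached its array's median. Since each condition has 1 array, no difference has a replicate check or a test, and differences are described by a fixed size of 2-fold. Where a gene has several probe sets past the filter their differences scatter, with a pooled SD of 0.38 log2 units over 5173 such genes. This scatter is the only error at hand, and it does not measure the spread between cultures. The signals of Mesp1 were 2433 without dox and 10977 with dox. Kdr, the gene of Flk1, had 10140 and 10733. All 10 endothelial markers passed the filter, with a median difference of -0.06. Kdr is among them, and as a gene of the sort its small difference is no finding. The 10 markers went both ways, with Robo4 (1.41) and Eng (1.26) at least 2-fold higher and Cldn5 (-1.40) at least 2-fold lower. Among markers of other cells that passed the filter, 10 of 12 for smooth muscle, mural cells and mesenchyme and 4 of 5 for cardiomyocytes were higher with dox by at least 2-fold. For blood, 4 of 8 were lower by at least 2-fold. Over all genes past the filter 5.69% were that much higher and 2.06% that much lower. The filter left out 4 of the 16 mesenchyme markers and 5 of the 10 cardiomyocyte markers measured, and 4 and 2 of those that passed did so only through the dox array.

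In these cells the receptor gene Tie1 and the phosphatase gene Ptprb stayed within 2-fold, as did 10880 of all 11794 genes past the filter. Both cultures were sorted for Flk1 and Tie2, and the part of the sort in these small differences was not tested. Among members past the filter the largest difference was that of the ligand gene Angpt1. Angpt1 was 13.2-fold higher with dox and Angpt2 2.26-fold higher, each by its brightest probe set. The other Angpt2 probe set was dim and gave -0.86, and the mean over both was 0.16. Tek lay within 2-fold too. Tek is a gene of the sort in both cultures, so its small difference is no finding. Both signals of Angpt4 and of Svep1 fell short of the filter.

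**Figure D1:**
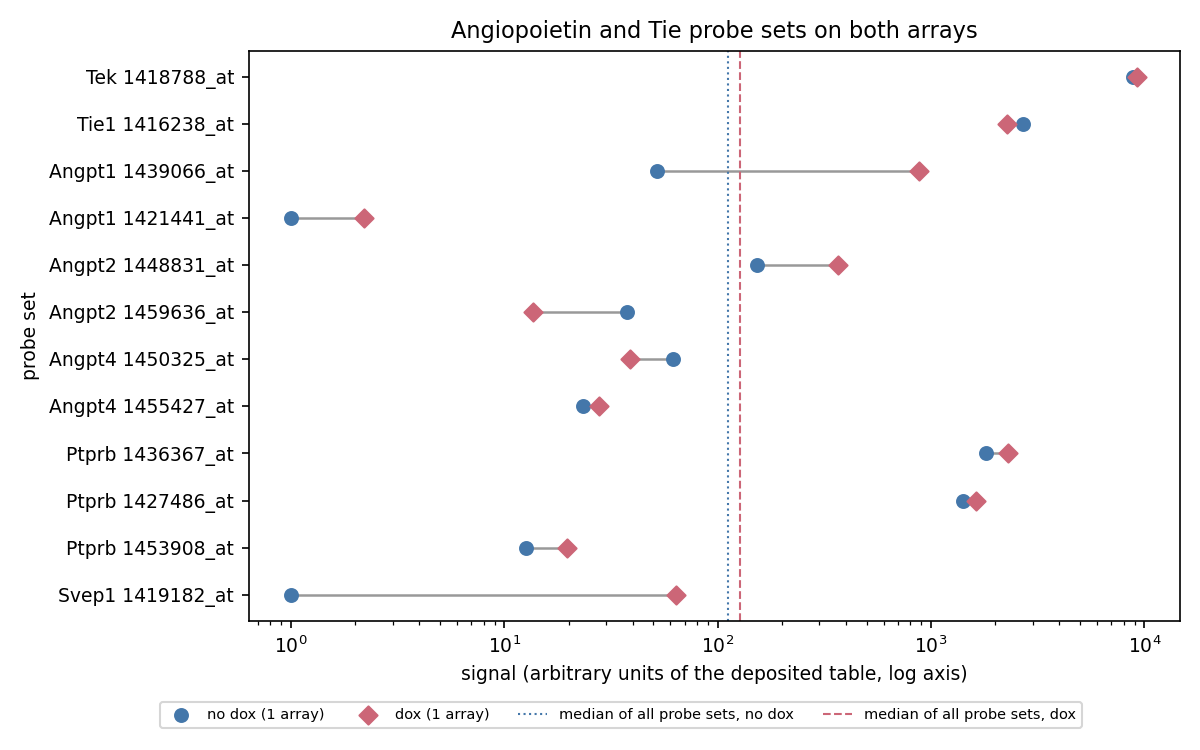
Signal of each of the 12 probe sets (rows) without dox (circles) and with dox (diamonds), in arbitrary units on a log axis, with each array's median as a vertical line. Tek, Tie1 and the brighter pair of Ptprb probe sets lie far right of the medians with their symbols close together, and the brightest Angpt1 probe set moves from 51.9 to 880.

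Tek, the gene of the sorted receptor Tie2, gave signals of 8799 (no dox) and 9277 (dox). Both values lie above 98.1% of the probe sets of their array. Tek belongs to the sort, since cells were kept for Tie2 on their surface in both cultures. Neither its high level nor a small difference between the arrays is therefore a finding. The difference was 0.08, and 81.8% of the 11794 genes past the filter differed by more in size. When the arrays were scaled to the same median the difference was -0.11, so no direction is given for Tek.

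Tie1, the partner receptor, was not used in the sort. Its signals were 2691 (no dox) and 2276 (dox), above 90.0% and 87.8% of probe sets. The difference of -0.24 is smaller than the SD between probe sets of the same gene, which does not measure the spread between cultures. Over the scalings and pseudocounts the difference ran from -0.42 to -0.24. Tie1 stood 0.32 log2 units lower against Tek with dox than without. Tek is a gene of the sort, so no conclusion is drawn from that value. Tie1 and Tek are also expressed by early blood cells, and the signal summed over 9 measured blood markers was 13916 without dox and 7936 with dox. Hbb-bh1 (3282 and 535) and Kit (3242 and 1317) had the largest falls in signal. Epor (453 and 565) and Spi1 (174 and 177) did not fall. Ptprc, which marks most white blood cells, was far below the median on both arrays, and its probe sets went opposite ways (15.9 to 1.80 and 1 to 13.0). The part of blood cells in the Tie1 value was not tested. In a sorted bulk sample, fewer cells of a type and less RNA per cell cannot be told apart.

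The promoters of both receptor genes are shown because ETS factors are known regulators of both. Of these factors Etv2 was lower (-1.56) and Elf1 higher (1.17) by at least 2-fold, though Elf1 gave 0.24 by its dim probe set. ETS factors bind DNA around the core GGAA. The sequences run from 250 bases before to 50 bases after each gene's start in the gene's own direction, from RefSeq on build GRCm38.p6. Capitals mark GGAA on either strand, so TTCC as well.
Tek, chr4:94739039-94739338, plus strand: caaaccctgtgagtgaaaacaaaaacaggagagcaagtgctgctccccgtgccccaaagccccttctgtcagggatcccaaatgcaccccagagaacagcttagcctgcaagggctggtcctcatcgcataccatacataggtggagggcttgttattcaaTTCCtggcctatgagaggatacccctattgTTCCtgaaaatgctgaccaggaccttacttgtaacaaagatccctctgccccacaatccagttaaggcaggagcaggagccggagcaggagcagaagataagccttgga
Tie1, chr4:118489800-118490099, minus strand: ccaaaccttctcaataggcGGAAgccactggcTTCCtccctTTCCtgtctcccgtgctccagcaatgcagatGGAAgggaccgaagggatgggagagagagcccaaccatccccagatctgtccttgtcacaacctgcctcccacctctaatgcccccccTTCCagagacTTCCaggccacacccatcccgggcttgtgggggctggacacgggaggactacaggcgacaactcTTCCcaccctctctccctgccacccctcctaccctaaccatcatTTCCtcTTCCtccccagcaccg
The Tek window holds 2 matches and the Tie1 window holds 9. Of 32851 promoter windows of this length in the table, 96% hold at least 1 match, with a median of 3. As many as 9 matches occur in 1.59% of them, and as many as 2 in 84.6%. The E-box letters CANNTG, which read alike on both strands and are the core bound by basic helix-loop-helix factors such as Mesp1, occur 2 times in the Tek window and 1 time in the Tie1 window. That match in the Tie1 window overlaps 1 of its GGAA matches. CANNTG is in 72.3% of all windows. Promoters of 4 of the 7 genes were in the table, the others being Svep1, with 6 GGAA matches and 0 CANNTG matches, and Angpt4, with 5 and 4. Angpt1, Angpt2 and Ptprb were not matched. These matches describe letters in a window and do not show a bound site.

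Ptprb, the phosphatase that acts on Tie2, is the member best covered by probes. Its brightest probe set (1436367_at) gave 1809 without dox and 2296 with dox, and the next (1427486_at) gave 1416 and 1626. Both were slightly higher with dox, by 0.34 and 0.20 log2 units, and they differ from each other by 0.14. The remaining probe set (1453908_at) was dim on both arrays, at 12.7 and 19.6, and gave 0.31. All 3 differences lie below the SD of 0.38 between probe sets, which does not measure the spread between cultures. With the arrays scaled to the same median they were 0.16, 0.02 and 0.22.

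Angpt1, the activating ligand, showed the largest difference of the members that passed the filter. Its brightest probe set (1439066_at) read 51.9 without dox, below that array's median of 112. With dox it read 880, above 77.2% of probe sets. The difference was 3.72, or 13.2-fold, and ranked 43rd from the top among 11794 genes. The plain ratio of the signals was 17.0. Because the lower value is dim, the size follows the pseudocount, from 3.03 with 64 to 4.06 with 1. The other Angpt1 probe set (1421441_at) read 1, the floor, without dox and 2.21 with dox, among the dimmest 3.97% of probe sets on both arrays. It therefore shows neither a rise nor its absence, and the Angpt1 difference rests on 1 probe set.

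Angiopoietin 1 is a product of mesenchymal and heart muscle cells in the embryo, and several markers of both were higher in the dox array. Summed over 16 measured smooth muscle, mural and mesenchyme markers the signal was 6146 without dox and 44790 with dox. The largest parts of the sum with dox were Acta2 (3000 without and 14719 with dox) and Col3a1 (530 and 10557). Of the 12 markers past the filter 10 exceeded 2-fold upward and 0 downward, although 4 of the 12 passed only through the dox array. Pdgfrb, the receptor of mural cells, was at 303 and 1521. Cnn1, a smooth muscle actin-binding protein, was at the floor without dox and at 147 with dox. Myh11, the myosin of mature smooth muscle, was near the floor on both arrays at 1.67 and 13.5. By their brightest probe sets Cspg4 was dim and lower with dox (76.8 and 59.6), and Des was dim at 67.5 and 84.3. Dcn differed by 0.11 by its brightest probe set and by 2.20 by its other. The 10 cardiomyocyte markers summed to 1907 and 6473, with the cardiac troponin gene Tnnt2 at 122 and 1469 and the natriuretic peptide gene Nppa at 8.22 and 8.16. The other cardiac troponin gene on that list, Tnni3, was dim and lower with dox (58.8 and 22.8), and the sarcomere gene Actn2 was dim at 38.5 and 47.0. The part of such cells in the Angpt1 difference was not tested.

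Angpt2, the ligand made by endothelium, was higher by a smaller amount. Its brightest probe set (1448831_at) read 154 without dox and 367 with dox, above the median of each array. The difference was 1.18, and 5.77% of genes past the filter differed by more in size. It stands close to the 2-fold line: it was 1.03 after quantile normalization, 1.005 with the arrays scaled to the same median and 0.99 with a pseudocount of 64. The other Angpt2 probe set (1459636_at) went the opposite way, from 37.7 without dox to 13.6 with dox, a difference of -0.86, though both of its signals are below their array's median. The mean over both probe sets was 0.16. Against Angpt2, Angpt1 was 2.55 log2 units higher with dox than without by the brightest probe sets, which compares changes and not levels of the ligands. That value rests on the dim Angpt1 signal without dox: it was 2.04 with a pseudocount of 64, 2.81 with 1 and 1.75 by the mean over probe sets.

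Angpt4, a further Tie2 ligand, was dim throughout. Its probe sets read 62.0 and 38.6 (1450325_at) and 23.4 and 27.9 (1455427_at) without and with dox, all below the medians. They gave -0.51 and 0.16, in opposite directions, so no direction is given.

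Svep1, the matrix ligand, was at the floor of the table without dox and at 64.1 with dox, above 37.1% of probe sets. The difference was 2.24 with a pseudocount of 16, 5.02 with 1 and 0.98 with 64, so its size is set by the pseudocount and no fold is given. Among the 6399 genes that did not reach the filter, 3.06% differed upward by at least 2-fold. Svep1 is made by mesenchymal cells in several tissues, and most of the mesenchyme markers given beside Angpt1 were higher in the same array. Their part was not tested here either.

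Counted over the system, 5 of the 7 genes passed the filter, of which 2 exceeded 2-fold upward, 0 exceeded it downward and 3 lay inside it, beside 5.69% of all genes upward and 2.06% downward. Angpt1 passed only through the dox array, where it had to differ to pass, so this count is no support for a shift of the system. With both arrays required to reach their median, 4 genes were left and 1, Angpt2, was 2-fold higher, beside 3.82% of all genes under that filter and 1.54% lower. The median over the 5 genes was 0.34 and over all genes 0.05.

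**Figure D2:**
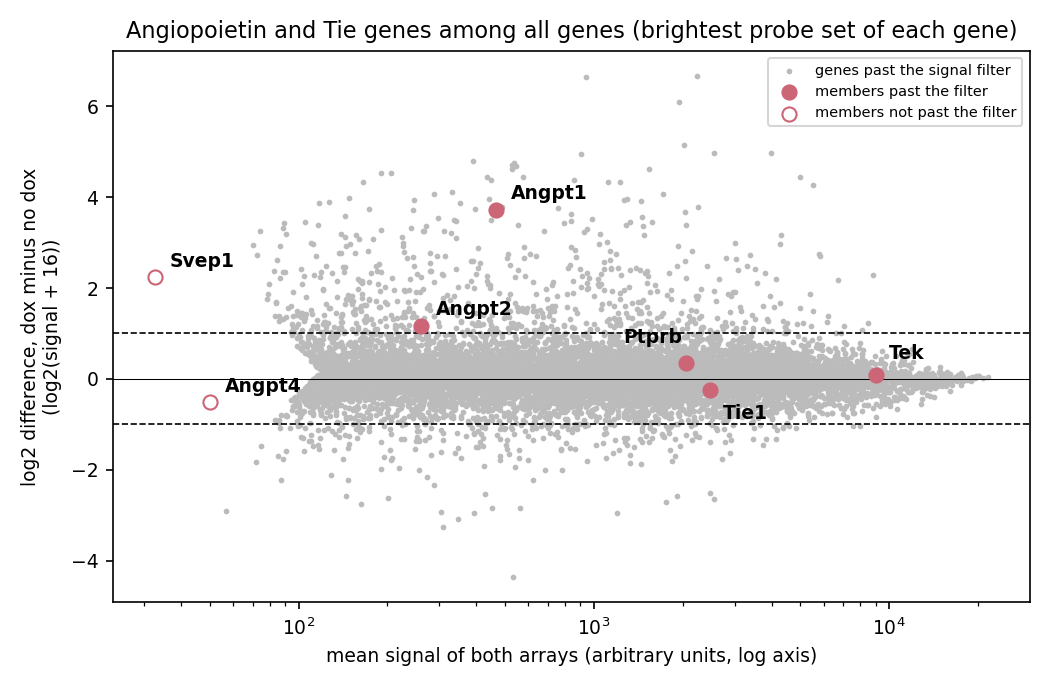
Log2 difference (dox minus no dox) against mean signal of both arrays on a log axis, with each gene past the filter as a grey point and the 7 genes of the system marked (open circles did not pass); dashed lines are 2-fold. Tek, Tie1 and Ptprb lie inside the dashed lines, and Angpt1 at 3.72 lies near the upper edge of the cloud. Angpt1 passed only through the dox array, where it had to differ to pass.

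The settings mattered most for the dim members. The plot of differences by setting shows Tek, Tie1 and Ptprb inside 2-fold under every setting drawn, Angpt1 above 2-fold under every setting drawn, and Angpt2 and Svep1 crossing the line.

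**Figure D3:**
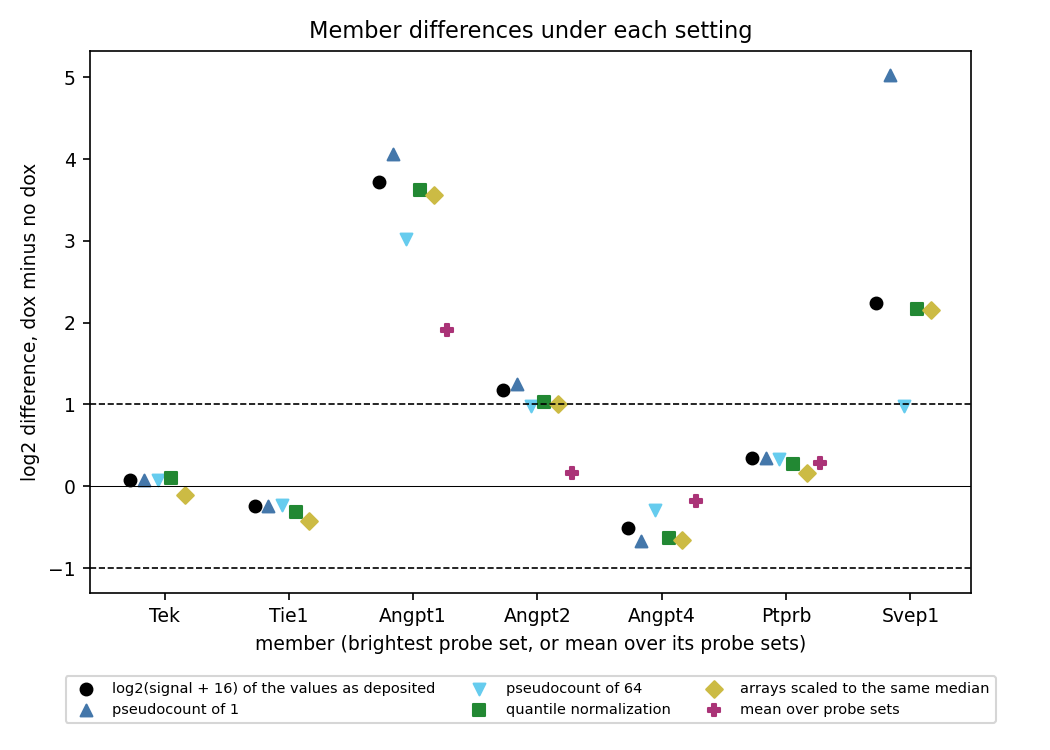
Log2 difference of each of the 7 genes (columns) under the main scale, 2 other pseudocounts, 2 other scalings and, for genes with several probe sets, the mean over probe sets (symbols); dashed lines are 2-fold. Svep1 spans 0.98 to 5.02, and Angpt2 lies between 0.99 and 1.25 except for the mean over its probe sets at 0.16.

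Genes around the receptor were taken from 5 lists, with 62 of 69 genes measured and 56 past the filter. The lists were chosen with earlier results of these data known, so their counts are not independent of the data. Of the 56 genes 5 exceeded 2-fold upward (8.93%) and 2 downward (3.57%), beside 5.69% and 2.06% of all genes. Their median difference was 0.06, against 0.05 over all genes.

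Genes of the signal inside the cell mostly stayed within 2-fold, as did 10880 of all 11794 genes past the filter. Of 21 Tie2 signalling genes past the filter 1 was 2-fold higher (4.76%), 0 were 2-fold lower and 20 were within 2-fold. Over all genes 5.69% were that much higher and 2.06% that much lower. The median of the 21 genes was 0.06, and it became -0.13 with the arrays scaled to the same median. The higher gene was Klf2, a transcription factor that Tie2 signalling and blood flow both induce in endothelium, with signals of 573 and 1772 (3.04-fold). Next came Foxo3, a forkhead factor that Akt inactivates, at 1166 and 2140 (0.87 log2 units, and 0.52 and -0.01 by its other probe sets). Pik3r1, the regulatory subunit of PI3 kinase, was at 542 and 981 (0.84), with other probe sets from -0.46 to 1.01. The adaptor genes Dok2, Grb7 and Grb14, which bind activated Tie2, did not reach the filter, and Dok2 read 80.1 and 81.4.

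Partners at the cell junction, where Ptprb and Tie2 act, stayed within 2-fold apart from 1 gene. The list does not stand out in this, since 10880 of all 11794 genes past the filter lay within 2-fold as well. Of 11 genes 0 were 2-fold higher and 1 was 2-fold lower (9.09%), beside 5.69% and 2.06% of all genes. The median of the 11 was -0.05, and Kdr, a gene of the sort, is among them. The lower gene was Cldn5, the tight junction claudin of endothelium, at 3582 without dox and 1350 with dox, 2.63-fold lower. Ocln, another tight junction protein, was at 680 and 1161 (0.76, and 0.71 by its other probe set), and the endothelial adhesion gene Esam was at 5586 and 4380 (-0.35). VE-cadherin, the substrate that Ptprb shares with Tie2, had 8244 and 7948 by the brightest probe set of its gene Cdh5, a difference of -0.05.

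Integrins and proteases of the matrix included 2 genes past 2-fold, Itga9 and Itgb5. These are genes through which angiopoietins and Svep1 can act outside the Tie receptors, or whose products can cut Tie ectodomains. Of 9 genes past the filter these 2 were higher (22.2%) and 0 were lower by that size, beside 5.69% and 2.06% of all genes. Without regard to the SD of 0.38, 8 of the 9 were above 0, or 7 with the arrays scaled to the same median and 6 by the mean over probe sets. The median was 0.61, and 0.43 and 0.23 under those settings. Over all genes 6556 of 11794 were above 0. Itga9, the alpha chain of the integrin that binds Svep1, was 5.96-fold higher (301 to 1873). Its other probe sets were also higher, at 2.32 and 1.28 log2 units. Itgb5 was 2.75-fold higher (677 to 1889), and all 4 of its probe sets lay between 1.18 and 1.46. Itgav, the chain that pairs with it, was at 2931 and 5174 (0.82), while its 4 dim probe sets ran from -0.29 to 0.58. Integrin and protease genes are also expressed by mesenchyme, and most of its markers were higher with dox as given beside Angpt1. The part of such cells was not tested.

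Regulators of Tek and Tie1 transcription differed in both directions. Tie1 itself stayed within 2-fold, as did Tek, which is a gene of the sort. No link between the regulators and the receptor genes was tested. Of the 13 regulators 2 were 2-fold higher (15.4%) and 1 was 2-fold lower (7.69%), with a median of -0.16. Over all genes these shares were 5.69% and 2.06%. By the mean over probe sets 1 was 2-fold higher and 3 were 2-fold lower, with a median of 0.03, beside 4.43% and 1.61% of all genes. With the arrays scaled to the same median 1 was higher and 1 lower, beside 4.48% and 3.41% of all genes. Etv2, the ETS factor that starts the endothelial and blood programme, had 2716 without dox and 913 with dox, 2.94-fold lower. Epas1, the hypoxia-inducible factor of endothelium, had 3641 and 8677, 2.38-fold higher, and its dim probe set gave 1.40. Elf1, an ETS factor of blood and endothelium, had 342 and 789, 2.25-fold higher, with 0.24 by its dim probe set. For the ETS genes Fli1 and Erg the brightest probe set gave -0.78 and -0.20, and another that passed the filter gave -1.30 and -1.81.

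Relatives of the angiopoietins that do not bind Tie2 were mostly dim. Of 6 angiopoietin-like genes listed 4 had a named probe set and 2 passed the filter, both within 2-fold. Angptl1 was at 376 and 302 (-0.30), but another of its probe sets gave 58.1 and 139, a difference of 1.06. Angptl6 was at 115 and 97.8 (-0.21).

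**Figure D4:**
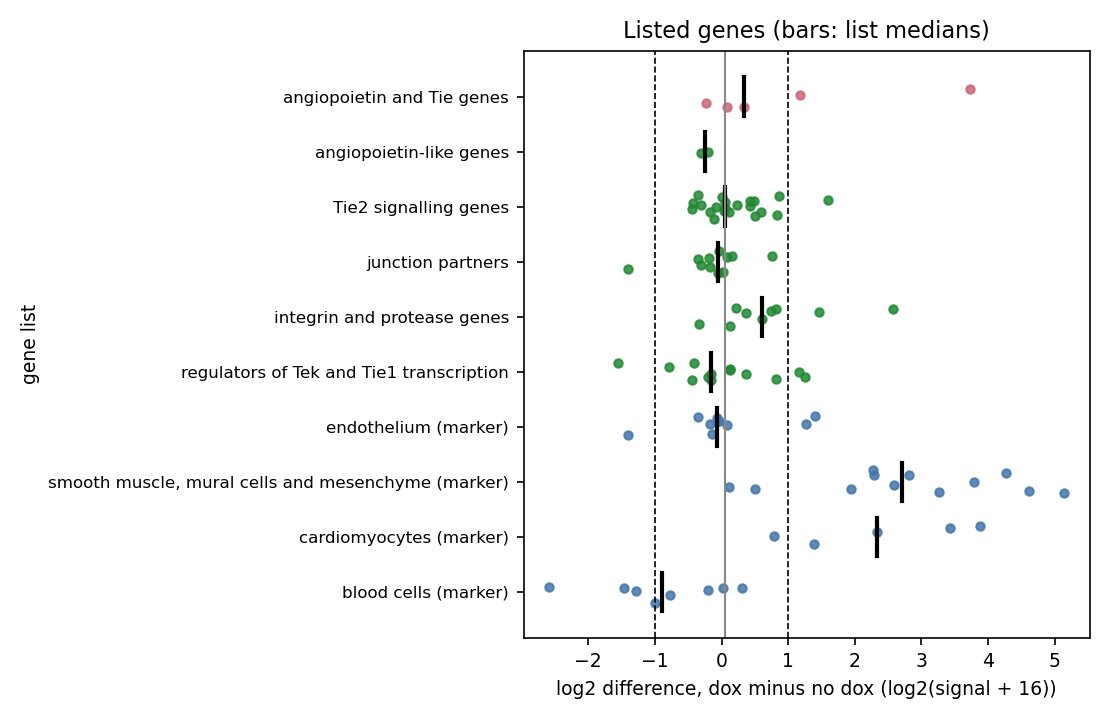
Log2 difference (dox minus no dox) of each gene past the filter, in the angiopoietin and Tie system, the 5 lists around it and the 4 marker lists (rows); black bars are list medians, the grey line is the median of all genes and dashed lines are 2-fold. The Tie2 signalling and junction genes mostly lie within 2-fold, as do 10880 of all 11794 genes past the filter. The mesenchyme and cardiomyocyte markers have medians of 2.70 and 2.34. Some of these markers passed only through the dox array, where they had to differ to pass. With the filter on both arrays the medians were 2.44 and 1.38, and with no filter 2.28 and 0.86.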

How the data were processed

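Total RNA (100 ng per sample) was labelled with biotin and hybridised to Affymetrix arrays, per the labels' protocols. The authors deposited linear signal intensities, 1 for each probe set on each array. The summarisation and scaling behind them are not given in the sources used here. The table used here has no detection calls. The lowest value is 1 in both columns, reached by 1165 and 1102 probe sets.

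Probe sets were named through the platform annotation: 34945 had 1 symbol, 932 had several and 9160 had none listed. The Entrez number of 34741 was found in RefSeq (GRCm38.p6), which changed 0 symbols. Signals were analysed in Python 3.11.15 with pandas 2.3.3 as log2(signal + 16), a pseudocount that understates changes of dim genes. The signal filter left 11794 of 18193 genes. The procedure was tested on simulated data. Precision is limited by the 1 array in each condition, and no test was possible.

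The members and lists were chosen with earlier results of these data known. Named by rule were the 7 members, Mesp1, Kdr and the 3 genes of each list that differed most in size; other genes were chosen after their values were seen. With 2 arrays no likeness between gene patterns was computed. Alternatives were other pseudocounts (1 and 64), quantile normalization, scaling to the same median, other filters, the mean over probe sets, and removal of probe sets that can match several transcripts (none of the 12).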

Additional observations from a re-analysis of the deposited data

How the results depend on the processing

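With a pseudocount of 64 the Angpt1 difference was 3.03, that of Svep1 was 0.98, and 1 member instead of 2 was 2-fold higher, since Angpt2 came to 0.99. With a pseudocount of 1 Svep1 was 5.02. With the mean over probe sets, an alternative chosen after seeing the data for single members, Angpt1 was 1.91 and Angpt2 was 0.16. The count of members 2-fold higher was then 1, and 4 genes of the lists were 2-fold lower instead of 2, beside 1.61% of all genes. The filter on both arrays also left 1 higher member, as it removes Angpt1. The other 55 of 64 alternative values of the main results moved by no more than the SD of 0.38 between probe sets or, for counts, by no more than 1.5 times. Scaling to the same median moved the median of all genes from 0.05 to -0.13 and, of the genes past 2-fold, the percentage that were higher from 73.4% to 56.8%. Tek was -0.11 under that scaling. Dim signals limit what can be said of Angpt4, Svep1 and the other probe sets of Angpt1 and Angpt2. No paired analysis was possible because each condition has 1 array, and for the same reason no array could be left out.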
